A study of Mus musculus with 2 samples.

Results

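Immediate early genes are switched on within minutes of a stimulus, without new protein synthesis, and 10 of them were followed here through the cells of mouse prostate tumors: Fos, Fosb, Jun, Junb, Egr1, Atf3, Ier2, Dusp1, Nr4a1 and Zfp36. They are 10 of the 32285 genes in the deposited tables. The genes were chosen with earlier results of these libraries known, being selected on their CPM (the UMIs of a gene scaled to a fixed total of UMIs in the class) in the 8 cell classes and both libraries compared below, so those values are descriptions and no test is given.

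The tumors arose from injected RM-1 cells, a murine prostate cancer (PCa) line that the study used as a model with inherent resistance to enzalutamide (ENZ), placed in the prostate of C57BL/6 mice. The labels give the genotype WT for both libraries. The control library came from the tumor of 1 mouse given vehicle, and the ENZ library from the tumor of 1 mouse given ENZ, an androgen receptor antagonist, so treatment, mouse, tumor and handling cannot be told apart. Immune cells were enriched before sequencing, so the share of a class among all cells was set partly by the sort. The age of the mice, and a dose or timing stated for this sequenced pair, are not given in the sources used here.

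The control library held 170830346 UMIs (unique molecular identifiers, 1 for each captured RNA molecule) and the ENZ library 162030149. Barcodes with at least 1000 UMIs and at most 20% mitochondrial UMIs numbered 12253 (control) and 10271 (ENZ). The libraries shared 39 of these barcode sequences, 0.318% of the control and 0.380% of the ENZ barcodes. Cells were assigned to a class by marker genes, which left 8422 control and 7458 ENZ cells in 8 classes. Cancer cells numbered 3459 (control) and 3896 (ENZ), with medians of 22323 and 23242 UMIs. T cells numbered 535 and 739, NK cells 415 and 199, macrophages 1428 and 650, and monocytes 858 and 1260. Neutrophils numbered 1223 and 427, dendritic cells (DC) 407 and 205, and fibroblasts 97 and 82.

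The labels name the cell type of both samples only as a prostate cancer cell, whereas markers of all 8 classes were present. The 8 epithelial and RM-1 markers of the cancer cell gate summed to 1498 CPM in control and 1477 CPM in ENZ cancer cells, led by Krt8 at 522 and 566 CPM, and the 6 T cell markers summed to 7.72 and 5.54 CPM there. Fibroblast markers had the largest sum of the other lists in these cells, 493 and 488 CPM, led by Col3a1 at 335 and 352 CPM. The source of the fibroblast markers was not tested. Barcodes that passed more than 1 gate, 2119 (control) and 1643 (ENZ), were left out, as were 1616 and 1122 that passed none. One property differed between the libraries in every class: rRNA-like transcripts took 1.39% of the UMIs of control cancer cells and 3.46% of ENZ cancer cells, 5.40% and 10.8% in T cells, and 3.66% and 9.63% in macrophages. Results without the barcodes rich in these transcripts are given below, and with rRNA-like, mitochondrial and ribosomal protein genes left out of the total the median log2 ratio of the 10 genes in cancer cells was -0.55, against -0.56 with them.

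In resting cells the transcripts of immediate early genes are scarce and short-lived. Growth factors, stress and cytokines act through MAP kinases and cyclic AMP on factors already bound at the promoters, among them SRF with its Elk partners and CREB. Fos, Fosb, Jun, Junb and Atf3 encode bZIP proteins, of which Fos and Jun proteins pair as the transcription factor AP-1. Egr1 encodes a zinc finger activator, Nr4a1 an orphan nuclear receptor and Ier2 a nuclear protein. Dusp1 and Zfp36 close the loop: Dusp1 dephosphorylates MAP kinases, and Zfp36 (tristetraprolin) binds AU-rich elements of cytokine and other mRNAs and speeds their decay. The same genes are known to respond to the dissociation of a tissue into single cells.

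Promoters of 8 of the 10 genes, without Egr1 and Ier2, were taken from the RefSeq promoter table (GRCm38.p6), each read from 250 bases before to 50 bases after the transcript start that the table uses. For Fosb (by a few bases), Atf3, Dusp1, Nr4a1 and Zfp36 this start lies inside the GENCODE gene given below, whose extent covers transcripts that begin farther upstream, and upstream starts of that kind were not examined. The 250 upstream bases are printed for 4 of them, 5′ to 3′ on the strand of the gene: Fos and Dusp1, with the lowest ratios between libraries in cancer cells, Nr4a1, with the ratio nearest to 1 there, and Zfp36, which differed in opposite directions in cancer cells and macrophages. Capitals mark the full cyclic AMP response element TGACGTCA, its core TGACG on either strand, and the CArG box, the motif bound by SRF. The Fos window was chr12:85473640-85473889 on the plus strand, Dusp1 chr17:26508473-26508722 on the minus strand, Nr4a1 chr15:101266596-101266845 on the plus strand and Zfp36 chr7:28379229-28379478 on the minus strand.
Fos: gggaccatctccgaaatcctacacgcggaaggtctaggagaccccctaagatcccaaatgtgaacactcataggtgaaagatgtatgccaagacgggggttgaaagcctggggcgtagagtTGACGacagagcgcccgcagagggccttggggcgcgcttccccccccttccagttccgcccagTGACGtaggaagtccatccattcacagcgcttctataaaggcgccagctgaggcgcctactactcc
Dusp1: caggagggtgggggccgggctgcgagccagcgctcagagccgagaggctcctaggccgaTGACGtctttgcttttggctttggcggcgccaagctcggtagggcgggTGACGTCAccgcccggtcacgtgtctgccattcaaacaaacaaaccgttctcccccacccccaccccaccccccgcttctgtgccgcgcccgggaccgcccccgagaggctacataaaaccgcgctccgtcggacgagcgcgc
Nr4a1: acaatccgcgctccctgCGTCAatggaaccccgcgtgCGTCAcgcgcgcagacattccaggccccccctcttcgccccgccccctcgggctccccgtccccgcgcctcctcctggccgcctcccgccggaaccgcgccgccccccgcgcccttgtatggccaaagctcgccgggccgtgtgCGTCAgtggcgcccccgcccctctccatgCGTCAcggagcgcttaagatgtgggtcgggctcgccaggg
Zfp36: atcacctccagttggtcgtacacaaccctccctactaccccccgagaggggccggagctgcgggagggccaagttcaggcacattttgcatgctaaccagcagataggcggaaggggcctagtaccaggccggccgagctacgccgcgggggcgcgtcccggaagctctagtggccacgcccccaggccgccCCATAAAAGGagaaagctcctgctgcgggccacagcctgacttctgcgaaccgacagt

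Among the 8 windows of 300 bases, 6 held TGACG on at least 1 strand, against 20.8% of all 32851 promoters of the table. Nr4a1 held 4 copies, Fos 2 and Dusp1 3, of which 2 overlap in its full element. The full element TGACGTCA, which contains TGACG on both strands, occurred in 1 window, that of Dusp1, 143 to 136 bases before the RefSeq transcript start, against 1.79% of all promoters. A CArG box was present in 1 window, that of Zfp36, against 1.63% of all promoters. The AP-1 motif TGANTCA, present in 7.81% of all promoters, was in 0 of the 8 windows. A match is a description of the letters and does not show that a factor was bound. The 6 genes with TGACG (Fos, Fosb, Junb, Atf3, Dusp1 and Nr4a1) had ratios in cancer cells from 0.519 (Dusp1) to 0.913 (Nr4a1), and the others, Jun and Zfp36, had 0.617 and 0.646.

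All 10 genes were lower in the ENZ library than in the control library in cancer cells, where 39.8% of all genes tested had a ratio below 1. For 5 of the 10 genes the difference was at least 1.5-fold. All 10 95% intervals of the ratio, which cover counting error only, lay below 1, although Nr4a1 was higher in the ENZ library (log2 ratio 0.07) after each cell had been thinned to 1000 UMIs. The share of all genes with an interval below 1 was not computed, and the 6 housekeeping genes described below all had one. A gene was counted as past the fold where its mean over the libraries was at least 20 CPM and its ratio at least 1.5-fold, since 1 library per condition allows no test. Of the 6523 genes at that level in cancer cells, 0.874% were lower by as much. The median log2 ratio of the 10 genes was -0.56 and that of all 6523 genes was 0.06. The 10 genes together made up 6245 CPM (control) and 4021 CPM (ENZ).

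Among the AP-1 genes, Fos (chr12:85473890-85477273) was at 936 CPM (930 to 943) in control and 487 CPM (482 to 491) in ENZ cancer cells, giving a ratio of 0.520 (0.514 to 0.525). Jun (chr4:95049034-95052222) was at 1044 CPM (control) and 644 CPM (ENZ), giving a ratio of 0.617 (0.611 to 0.623). Junb (chr8:84974484-84978718), which dimerizes with Fos proteins and can oppose Jun, was at 1582 and 1125 CPM, a ratio of 0.711 (0.705 to 0.716). Fos and Jun were thus past 1.5-fold and Junb was not. Fosb (chr7:19302696-19310051) was at 330 and 270 CPM, a ratio of 0.820 (0.807 to 0.833). Atf3 (chr1:191170296-191218039), a stress-induced repressor of the ATF/CREB family, was at 146 and 111 CPM, a ratio of 0.757 (0.739 to 0.776). The intervals of these 5 ratios did not overlap, so Fos differed most and Fosb least within the group beyond counting error. Coordinates are those of GENCODE M21 on GRCm38.

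Of the feedback genes, Dusp1 differed as much as Fos and Zfp36 less. Dusp1 (chr17:26505590-26562128) was at 386 CPM (382 to 390) in control and 201 CPM (198 to 203) in ENZ cancer cells, giving a ratio of 0.519 (0.510 to 0.528). Zfp36 (chr7:28376784-28380253) was at 751 and 485 CPM, a ratio of 0.646 (0.639 to 0.653), and fell short of 1.5-fold when the CPM of each cell were averaged. Ier2 (chr8:84661331-84662852) was at 658 and 382 CPM, a ratio of 0.581 (0.574 to 0.588). Dusp1, which acts on MAP kinases, and Zfp36, which acts on mRNA, were both lower together with the factors. Nr4a1 (chr15:101254269-101274795) was at 63.2 and 57.8 CPM, a ratio of 0.913 (0.881 to 0.947), the smallest difference of the 10 in these cells.

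Egr1 was at 348 CPM (345 to 352) in control and 259 CPM (256 to 262) in ENZ cancer cells, giving a ratio of 0.743 (0.731 to 0.755). It therefore lay between Junb and Atf3 in the size of the difference, and its interval overlapped that of Atf3. Like Junb, Atf3, Fosb and Nr4a1, it was below the 1.5-fold limit.

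The difference in cancer cells was seen across cells and not in a few of them. After each cell had been thinned to 1000 UMIs, the mean number of UMIs of the 10 genes per cell was 6.92 in control and 4.48 in ENZ cells, and the median was 6 and 4. Cells with at least 5 of the 10 genes detected made up 38.1% of control and 18.7% of ENZ cancer cells. The share of thinned cancer cells with a Fos UMI was 47.2% (45.6% to 48.9%) in control and 32.9% (31.4% to 34.4%) in ENZ cells, and unthinned it was 88.5% and 84.5%. No class was known to lack these genes. NK cells, with the lowest Fos level, had a Fos UMI in 6.27% of thinned control and 6.53% of thinned ENZ cells, from median depths of 3501 and 3953 UMIs. For thinned T cells these shares were 8.41% (control) and 3.52% (ENZ). The 3 cancer cells with the most Fos UMIs held 0.787% of them in control and 1.16% in ENZ cells.

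**Figure D1:**
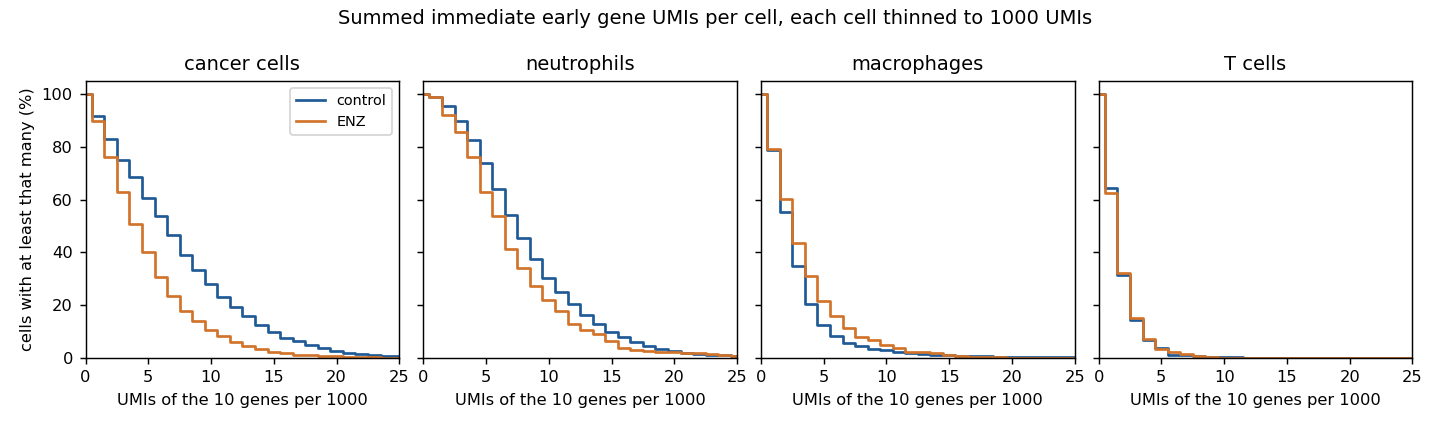
Share of cells (y axis, percent) with at least a given number of UMIs of the 10 genes per 1000 UMIs (x axis), in control (blue) and ENZ (orange) cells of 4 classes, each cell thinned to 1000 UMIs. The ENZ curve lies below the control curve in cancer cells, where the means are 6.92 and 4.48, and the curves nearly coincide in T cells, where the means are 1.24 and 1.25.

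The summed level of the 10 genes was lower in ENZ cancer cells in each group of cells split by depth, mitochondrial share and division. The summed CPM of the 10 genes had a ratio of 0.829 (0.744 to 0.924) in cells of under 3000 UMIs, 0.687 in cells of 3000 to 10000 UMIs, 0.625 in cells of 10000 to 30000 UMIs and 0.649 in deeper cells. Dividing cancer cells, those with UMIs of at least 2 of 4 division markers, had 5626 CPM (control) and 3574 CPM (ENZ), giving a ratio of 0.635. The other cancer cells had 7703 and 4818 CPM, a ratio of 0.625. Dividing cells thus had lower levels in both libraries, with nearly the same ratio between them. The ratio was 0.726 in cells with under 2% mitochondrial UMIs, 0.622 in those with 2% to 4% and 0.660 in those with more. Among cells with at most 1% rRNA-like UMIs, 909 (control) and 55 (ENZ), it was 0.642 (0.631 to 0.653). Single genes went the other way in some groups: Nr4a1 had a ratio of 1.62 (1.27 to 2.08) in cells of 3000 to 10000 UMIs, and Fosb 1.26 (1.18 to 1.36) in cells with under 2% mitochondrial UMIs.

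RNA outside the called cells differed in the same direction. In barcodes with at most 100 UMIs, which carry free RNA, the 10 genes summed to 4851 CPM (control) and 3784 CPM (ENZ), giving a ratio of 0.780 (0.763 to 0.797). The share of free RNA in cancer cells, estimated from markers of other classes, was 1.12% in control and 2.57% in ENZ cells. After its subtraction 5 of the 10 genes were again at least 1.5-fold lower in cancer cells. Neutrophil markers summed to 157 CPM in control and 93.4 CPM in ENZ cancer cells, led by S100a9 and Mmp9, and macrophage markers to 46.0 and 22.1 CPM, led by C1qb. Monocyte markers, led by Vcan, were higher, at 50.9 and 75.7 CPM. NK cell markers summed to 58.1 and 69.6 CPM, of which Klra4 alone was 45.9 and 62.6 CPM, and the other NK cell markers together were lower in the ENZ library. Their part in the result was not tested.

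Other immediate early genes differed less as a group. Of 40 further immediate early and AP-1 genes, 34 reached 20 CPM in cancer cells, 6 were lower by at least 1.5-fold and 0 were higher by as much. Of all genes in these cells, 0.874% were lower and 0.337% higher by as much. The median log2 ratio of the 34 genes was -0.14. The lowest was Socs3, a feedback inhibitor of cytokine receptors, at 217 and 106 CPM with a log2 ratio of -1.03. It was followed by Cebpd, a C/EBP transcription factor, at 102 and 58.2 CPM with -0.81, and Dusp2, a nuclear MAP kinase phosphatase, at 500 and 289 CPM with -0.79. The highest were Klf4, a zinc finger factor, with a log2 ratio of 0.32, Tnfaip3, an inhibitor of NF-κB signalling, with 0.29, and Csrnp1 with 0.23. The remaining 3 past 1.5-fold, named after their values had been seen, were Btg2, Ier3 and Ier5, with log2 ratios of -0.73, -0.66 and -0.60.

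Genes that act before them were described in the same way. Of 18 upstream factors, among them Srf, the Elk factors, Creb1 and MAP kinases, 15 reached 20 CPM in cancer cells and 0 were past 1.5-fold in either direction, with a median log2 ratio of 0.14. Since 0.874% of all genes were lower and 0.337% higher by as much, a count of 0 among 15 is at the background. Of the paralogs of Zfp36 that also act in mRNA decay, Zfp36l1 had a log2 ratio of -0.28 and Zfp36l2 one of 0.15. The 6 housekeeping genes had a median of -0.13, with all 6 ratios and their intervals below 1, and 0 of them were past 1.5-fold. These lists describe mRNA levels and carry no measure of kinase activity.

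Heat shock genes, which respond to protein stress, were also lower in ENZ cancer cells in part. Of 11, 4 were lower by at least 1.5-fold and 0 higher, where 0.874% and 0.337% of all genes were. The median log2 ratio of the 11 was -0.19. Hspa1a, an inducible Hsp70 chaperone, was at 216 CPM in control and 96.4 CPM in ENZ cells. Hspa1b had a log2 ratio of -0.75, the co-chaperone Dnajb1 one of -0.72 and the small chaperone Hspb1 one of -0.63. In macrophages 6 of the 11 heat shock genes were lower by at least 1.5-fold, where 3.4% of 6022 genes were. The median of the heat shock genes there was -0.61, while that of the 10 immediate early genes was 0.11. Whether the heat shock genes share a source with the immediate early genes was not tested.

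**Figure D2:**
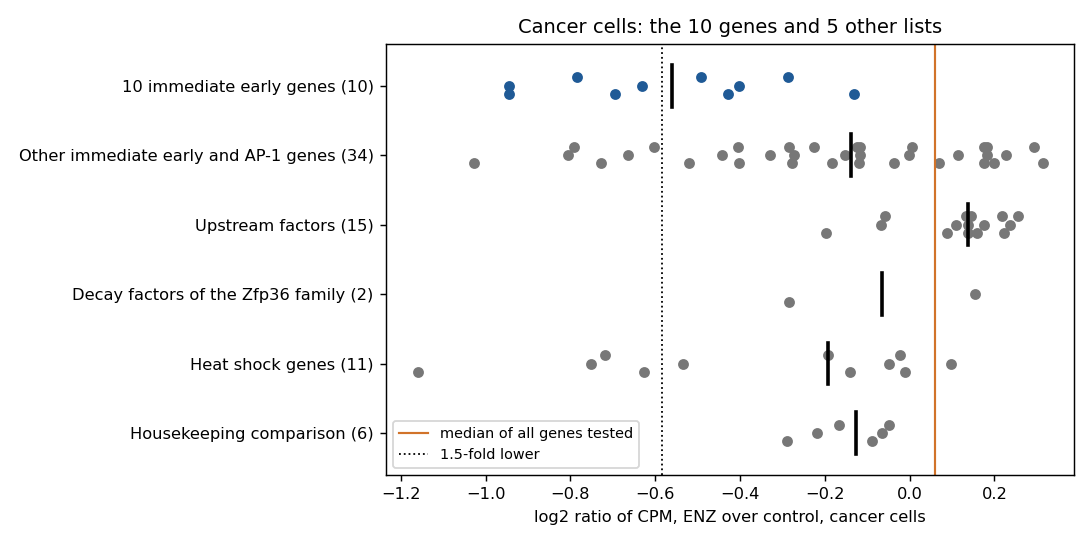
Log2 ratio of CPM, ENZ over control, in cancer cells (x axis) for the 10 genes (blue) and the genes of 5 other lists that reached 20 CPM (grey), with the number of genes in brackets and a black bar at each median. The median of the 10 genes is -0.56, those of the other immediate early genes and of the upstream factors are -0.14 and 0.14, and the orange line marks the median of all genes tested, 0.06.

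Over the 8 classes, 59 of the 80 gene-by-class ratios were below 1, where 35.5% (macrophages) to 50.9% (neutrophils) of all genes tested in a class were. The 95% interval lay below 1 for 45, above 1 for 11 and held 1 for 24. The share of all genes with such intervals was not computed, so these counts of intervals have no background. At least 1.5-fold lower were 10 of the 80, where 0.874% (cancer cells) to 9.26% (fibroblasts) of all genes were, and 1 was at least 1.5-fold higher. The share of all genes at least 1.5-fold higher was 0.337% in cancer cells, 5.85% in NK cells, 6.73% in monocytes, 7.17% in neutrophils, 7.26% in T cells, 8.44% in macrophages, 9.96% in fibroblasts and 10.6% in DC. All 80 reached a mean of 20 CPM. The 10 values were 5 in cancer cells, 2 in T cells and 1 each in NK cells, monocytes and DC.

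**Figure D3:**
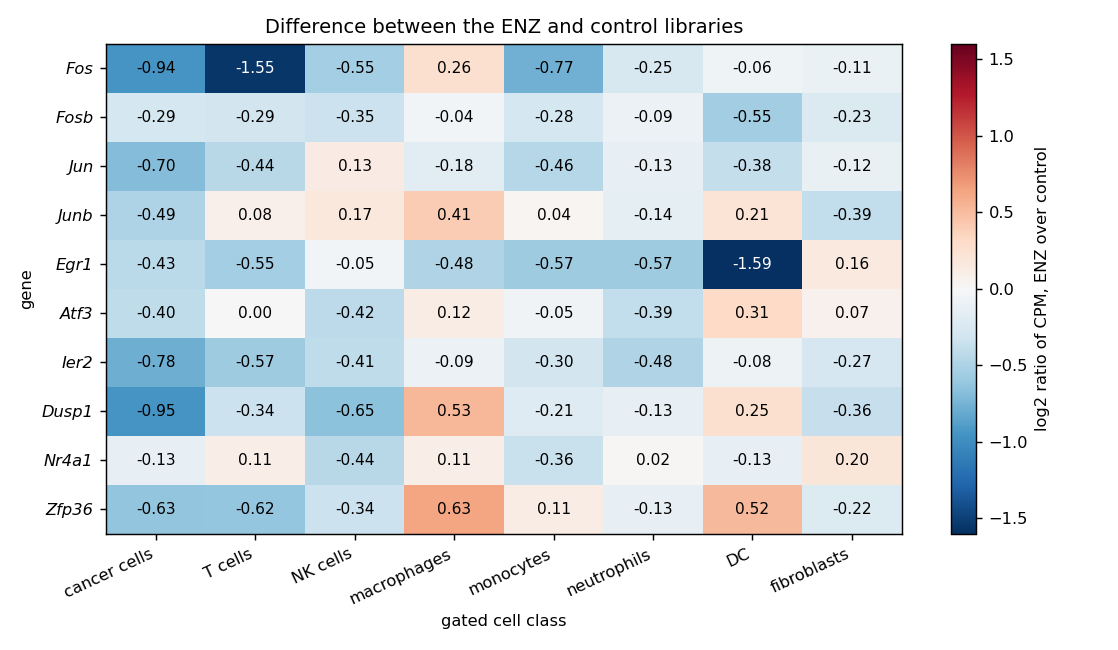
Log2 ratio of CPM, ENZ over control, for each of the 10 genes (rows) in each of the 8 gated cell classes (columns), 1 library per condition, with blue for lower and red for higher in the ENZ library. Cancer cells are the class with all 10 values below 0, and macrophages have 6 values above 0, up to 0.63 for Zfp36.

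In macrophages several of the genes were higher in the ENZ library. Zfp36 was at 319 CPM (309 to 329, control) and 494 CPM (474 to 515, ENZ), giving a ratio of 1.55 (1.47 to 1.63), and was the 1 gene of the 10 past 1.5-fold there, where 8.44% of 6022 genes were higher by as much. Dusp1 was at 215 and 310 CPM, a ratio of 1.44 (1.35 to 1.54). Junb was at 631 and 837 CPM, a ratio of 1.33 (1.27 to 1.38), and Fos at 360 and 430 CPM, a ratio of 1.19 (1.13 to 1.26). Both feedback genes were thus lower in ENZ cancer cells and higher in ENZ macrophages, with intervals that did not overlap. In the other direction, Egr1 was at 118 and 84.8 CPM, a ratio of 0.719 (0.641 to 0.804), and Jun at 357 and 315 CPM, a ratio of 0.882 (0.831 to 0.937). None of the 10 was at least 1.5-fold lower in macrophages, against 3.40% of all genes.

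The macrophage values were read against a shift of all genes in that class, whose median log2 ratio was 0.14, above the 0.11 of the 10 genes. With median-of-ratios scaling, which removes the shift, the median of the 10 genes was -0.03, and Zfp36 was at 0.49, Dusp1 at 0.39, Junb at 0.27 and Fos at 0.12 in log2 ratio. Neutrophil markers summed to 752 CPM in control and 405 CPM in ENZ macrophages, led by S100a9 and Mmp9, and cancer cell markers to 80.5 and 101 CPM, led by Krt8. Monocyte markers, by contrast, were higher, at 500 and 814 CPM, led by F13a1 at 205 and 429 CPM. The part of these markers in the macrophage values was not tested. Of the other list of immediate early genes, 34 reached 20 CPM in macrophages, with 7 higher and 1 lower by at least 1.5-fold. Of all 6022 genes, 8.44% were higher and 3.4% lower by as much. Klf2, a factor of quiescent leukocytes and endothelium chosen here after its value had been seen, was at 94.6 and 212 CPM.

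In T cells Fos was at 136 CPM (122 to 150) in control and 46.3 CPM (39.5 to 53.9) in ENZ cells, giving a ratio of 0.341 (0.282 to 0.411). Zfp36 was at 135 and 87.5 CPM, a ratio of 0.649 (0.556 to 0.757), which was past 1.5-fold under 6 of 11 alternatives and turned to a log2 ratio of 0.20 without rRNA-rich barcodes. These 2 genes were past 1.5-fold, where 5% of 5844 genes were lower by as much. Of the 10 ratios 7 were below 1, as were 40.4% of those of all genes tested. After thinning 3 of the 10 were below 1, and without rRNA-rich barcodes 4 were. Markers of some other classes were also lower in ENZ T cells. Those of macrophages summed to 117 and 44.3 CPM, those of NK cells to 310 and 154 CPM, led by Gzma, and those of neutrophils to 146 and 81.1 CPM, led by S100a9. Cancer cell markers were higher, at 77.1 and 91.4 CPM, as were DC markers, at 67.4 and 79.9 CPM. Their part in the T cell values was not tested.

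Fos in T cells had 364 UMIs (control) and 165 (ENZ), and 3 cells held 31.6% of the former and 31.5% of the latter. Without the 5% of barcodes with the most UMIs its log2 ratio went from -1.55 to -1.11, and without barcodes over 5% rRNA-like UMIs, 706 of the 739 ENZ T cells, it was 0.02. Fos was past 1.5-fold lower under 10 of 11 alternatives in all, with a log2 ratio of -1.47 thinned and -0.90 with the CPM of each cell averaged. By depth, its ratio was 1.03 (0.585 to 1.85) in T cells of under 3000 UMIs, 0.519 (0.379 to 0.709) in those of 3000 to 10000 UMIs and 0.306 (0.218 to 0.424) in those of 10000 to 30000 UMIs. The summed ratio of the 10 genes was 1.10 in T cells of under 3000 UMIs and 1.05 in those of 3000 to 10000 UMIs. It was 0.668 in the 40 control and 41 ENZ T cells of 10000 to 30000 UMIs and 0.357 in the 2 and 1 cells beyond that.

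T cells with a UMI of Cd8a or Cd8b1, 92 (control) and 159 (ENZ), had 1784 and 950 CPM of the 10 genes, a ratio of 0.533 (0.489 to 0.580). T cells with a Cd4 UMI, 84 and 218, had 1252 and 1241 CPM, a ratio of 0.991 (0.901 to 1.09). Fos alone had ratios of 0.343 (0.248 to 0.469) and 0.247 (0.166 to 0.364) in these sets. Detection of a receptor gene depends on the depth of the cell, and the depth of these 2 sets was not matched. The sets may therefore differ from the full T cell class in more than the receptor.

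**Figure D4:**
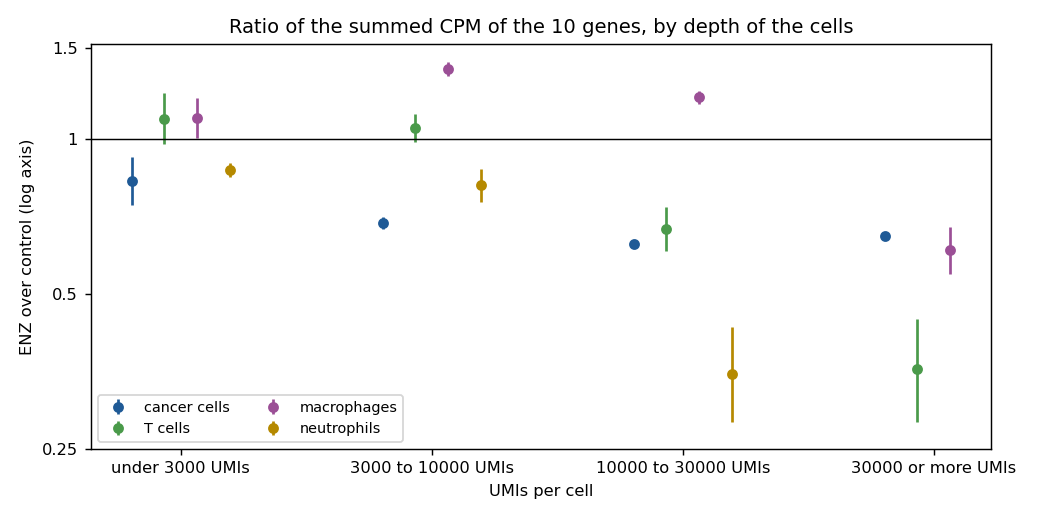
Ratio of the summed CPM of the 10 genes, ENZ over control (y axis, log axis), in cells split by their number of UMIs (x axis), for 4 classes with 95% intervals for counting error only. Cancer cells lie below 1 in all 4 bins (0.829 to 0.625), whereas T cells are at 1.10 and 1.05 in the 2 shallow bins and the deepest T cell point rests on 2 control cells and 1 ENZ cell.

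NK cells had 1 of the 10 genes at least 1.5-fold lower, where 3.97% of all genes were. This was Dusp1, at 108 CPM (93.7 to 123) in control and 68.4 CPM (54.0 to 85.5) in ENZ cells. It rested on 216 and 77 UMIs, and was past 1.5-fold under 8 of 11 alternatives. It was not past this limit without the 5% of barcodes with the most UMIs or with the CPM of each cell averaged. Fos in NK cells was at 66.2 and 45.3 CPM, a ratio of 0.684 (0.485 to 0.951). Its log2 ratio of -0.55 went to -0.00072 with the CPM of each cell averaged, -0.047 thinned and -0.16 without the 5% of barcodes with the most UMIs. It went to -1.64 without rRNA-rich barcodes, which were 183 of the 199 ENZ NK cells. The median log2 ratio of the 10 genes was -0.38, but with the CPM of each cell averaged it was 0.0052, with 5 of the 10 below 1. Neutrophil markers summed to 225 and 73.7 CPM in these cells, led by S100a9, and T cell markers to 420 and 297 CPM. Cancer cell markers were higher, at 53.3 and 85.3 CPM, as were monocyte markers, at 192 and 277 CPM. Endothelial cell markers, led by Pecam1, were at 113 and 185 CPM. The part of these markers in the NK cell values was not tested.

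Monocytes had Fos at 288 CPM (272 to 306, control) and 169 CPM (159 to 179, ENZ), giving a ratio of 0.587 (0.539 to 0.638). It was the 1 gene of the 10 past 1.5-fold, against 3.67% of all genes, and the median of the 10 was -0.29. Jun was at 400 and 292 CPM, a ratio of 0.729 (0.681 to 0.781), while Junb, at 503 and 516 CPM, had an interval that held 1. Without barcodes over 5% rRNA-like UMIs, which were 1194 of the 1260 ENZ monocytes, the log2 ratio of Fos was -0.12 and the median of the 10 genes was 0.19. The markers of the monocyte gate summed to 3077 CPM in control, led by Vcan, and 4772 CPM in ENZ cells, led by Chil3 at 2866 CPM. Macrophage markers summed to 313 and 440 CPM there, neutrophil markers to 303 and 454 CPM and cancer cell markers to 61.9 and 104 CPM. Their part in the monocyte values was not tested. Fos was lower and Zfp36 was not: Zfp36 was at 287 and 311 CPM, a ratio of 1.08 (1.005 to 1.17).

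In DC the largest difference of the 80 was that of Egr1, at 68.1 CPM (58.4 to 79.0) in control and 22.7 CPM (15.1 to 32.7) in ENZ cells, giving a ratio of 0.333 (0.215 to 0.498). The interval of this ratio overlapped that of Fos in T cells, at 0.341 (0.282 to 0.411). Egr1 was the 1 gene of the 10 past 1.5-fold lower in DC, against 5.12% of all genes. It rested on 175 and 28 UMIs, of which 3 cells held 24.0% and 21.4%. The markers of the DC gate differed between the libraries, summing to 1699 CPM in control, led by Wdfy4, and 2644 CPM in ENZ cells, led by Ccl22 at 889 CPM, and neutrophil markers summed to 181 and 61.5 CPM. The part of this difference in make-up in the Egr1 value was not tested. Egr1 stayed past 1.5-fold under each of 11 other ways of computing it, with log2 ratios from -2.74 to -1.20. Zfp36 was at 195 and 278 CPM in DC, a ratio of 1.43 (1.24 to 1.64), and Junb at 420 and 486 CPM, a ratio of 1.16 (1.05 to 1.28). The order of the genes in DC was therefore unlike that in cancer cells, where Egr1 differed less than Zfp36. Of the 11 heat shock genes, 7 were at least 1.5-fold lower in ENZ DC, against 5.12% of all genes, with a median log2 ratio of -0.75.

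Neutrophils and fibroblasts had 0 of the 10 genes lower by at least 1.5-fold, against 8.36% and 9.26% of all genes. In neutrophils Egr1 was at 741 CPM (710 to 773, control) and 498 CPM (455 to 544, ENZ), giving a ratio of 0.672 (0.609 to 0.741), just inside the limit, and past it under 3 of 11 alternatives. Ier2 was at 236 and 170 CPM there, a ratio of 0.719 (0.604 to 0.851). The mean number of UMIs of the 10 genes in thinned neutrophils was 7.90 and 6.72 per cell. In fibroblasts, from 97 and 82 cells, Junb was at 1240 and 945 CPM, a ratio of 0.762 (0.713 to 0.814). Egr1 in fibroblasts was at 591 and 660 CPM, a ratio of 1.12 (1.03 to 1.22), opposite in direction to neutrophils. Fos, at 1203 and 1115 CPM in fibroblasts, had a ratio of 0.927 (0.870 to 0.987). After thinning, the fibroblast log2 ratios of Junb and Fos turned to 0.17 and 0.12, and 3 cells held 20.4% of the Junb UMIs of control fibroblasts.

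Markers of other classes differed in both classes. In neutrophils monocyte markers summed to 161 CPM (control, led by Ly6c2) and 378 CPM (ENZ, led by Chil3), and macrophage markers to 213 and 117 CPM. In fibroblasts neutrophil markers summed to 385 CPM, led by S100a9, and 53.4 CPM, macrophage markers to 76.5 and 148 CPM, led by C1qa, and monocyte markers to 277 and 436 CPM, led by Vcan. Their part in the values of these 2 classes was not tested.

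The level of each gene also differed between the classes within a library. Fibroblasts had the highest Fos, Fosb and Jun in both libraries, above cancer cells in the control library. In thinned control cells, a UMI of Fos was present in 44.3% (34.2% to 54.8%) of fibroblasts and 47.2% of cancer cells. For Fosb these shares were 26.8% and 27.3%, and for Jun 57.7% and 59.2%. In thinned ENZ cells they were 59.8% and 32.9% for Fos, 28.0% and 24.1% for Fosb and 63.4% and 42.5% for Jun. Of the Fos UMIs of the 97 control fibroblasts, 3 cells held 13.3%. Fos in the control library went from 1203 CPM in fibroblasts and 936 CPM in cancer cells to 136 CPM in T cells and 66.2 CPM in NK cells, an 18.2-fold range. Fos was abundant in free RNA (598 CPM in the control library), whose estimated share in control NK cells was 5.58%. With free RNA subtracted, NK cells were at 34.8 CPM and the range was 34.8-fold. In the ENZ library neutrophils (529 CPM) and cancer cells (487 CPM) followed fibroblasts (1115 CPM) with overlapping intervals, and T and NK cells (46.3 and 45.3 CPM) did not differ beyond counting error. With free RNA subtracted these were at 33.7 and 21.8 CPM, and the range of Fos in the ENZ library went from 24.6-fold to 51.2-fold. Fosb had the same highest and lowest classes as Fos in both libraries.

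Neutrophils had the highest Junb, Atf3, Dusp1 and Nr4a1 in both libraries. Junb was at 2345 CPM in control neutrophils and 2127 CPM in ENZ neutrophils, against 1582 and 1125 CPM in cancer cells. Dusp1 was at 1293 and 1186 CPM in neutrophils, with fibroblasts next at 488 and 379 CPM. Atf3 was at 411 and 313 CPM in neutrophils and at 178 and 194 CPM in macrophages. Nr4a1 had the narrowest range, 3.10-fold in control and 3.44-fold in ENZ cells, and was lowest in cancer cells. In the control library its interval in neutrophils (196 CPM) overlapped that in monocytes (172 CPM).

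Ier2 was highest in cancer cells in both libraries, with fibroblasts next, at 349 and 290 CPM. Zfp36 was highest in cancer cells of the control library, at 751 CPM, and in the ENZ library neutrophils (556 CPM), macrophages (494 CPM), fibroblasts (487 CPM) and cancer cells (485 CPM) lay together at the top, with overlapping intervals between neighbours in that order. Egr1 was highest in neutrophils of the control library and in fibroblasts of the ENZ library. It was lowest in NK cells of the control library, at 52.3 CPM, not beyond counting error of T cells at 57.3 CPM, and in DC of the ENZ library.

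**Figure D5:**
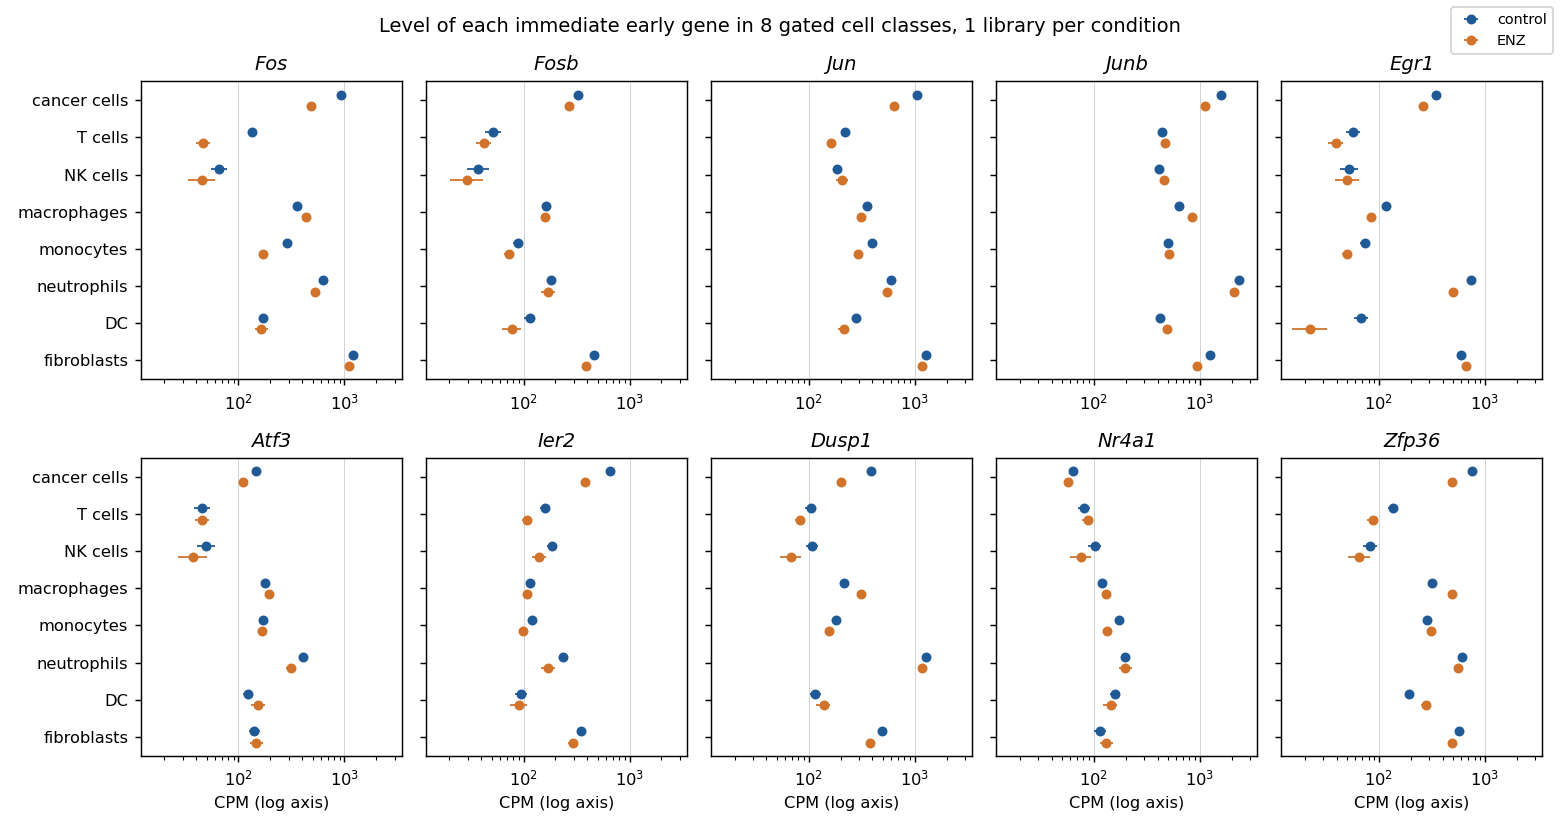
Level of each of the 10 genes in CPM (x axis, log axis) in the 8 gated cell classes (y axis), in the control (blue) and ENZ (orange) library, with 95% Poisson intervals for counting error only, 1 library per condition. Fos ranges from 1203 CPM in fibroblasts to 66.2 CPM in NK cells of the control library, and the gap between libraries in cancer cells is wide for Fos and Dusp1 and narrow for Nr4a1.

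The genes most like the 10 over the 16 values of 8 classes in 2 libraries were found among 3423 genes with a mean of at least 50 CPM, by the Pearson correlation of log2(CPM + 10). These values share libraries and cell depth, so the correlations are descriptions. The summed level was most like that of Cebpd (r = 0.94), followed by Csf1, the macrophage growth factor, at 0.93, the histone gene Hist1h2bc at 0.92, Igfbp6, which binds insulin-like growth factors, at 0.91 and Fndc3b at 0.91. The gene most like Fos was Fosb and the reverse, with r = 0.97, and the gene most like Dusp1 was Junb, with r = 0.94. Jun was most like Cebpd (0.96), Zfp36 like Asph (0.96), Atf3 like the interferon-induced Ifitm2 (0.95), Junb like Lsmem1 (0.94), Nr4a1 like the bZIP repressor gene Nfil3 (0.94), Egr1 like Fam162a (0.93) and Ier2 like Tm4sf1 (0.89).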

How the data were processed

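Droplet-based scRNA-seq data came from 1 control and 1 ENZ-treated tumor of RM-1 cells. The deposited files hold the authors' unfiltered, unnormalized UMI counts, 1 value for each gene in each barcode. The file headers name Cell Ranger 7.2.0, whereas the submitters' processing notes name Cell Ranger 2.1.1 and mm10. Annotation and the use of intronic reads are not given in the sources used here.

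Barcodes of at least 1000 UMIs and at most 20% mitochondrial UMIs were gated by markers, scored as UMIs per 10000 against a limit for each class. A cell needed 2 distinct markers and 2 times the score of the next class, which also removed cells with markers of several classes. No doublet caller was run. The limits were set after marker values had been seen. CPM of the UMIs summed in a class and library carry exact Poisson intervals, ratios conditional binomial ones and shares Clopper-Pearson ones. These 95% intervals measure counting error alone. Conditions were not tested against each other, since a class has 1 library in each.

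The 10 genes and all gene lists were chosen with earlier results of these data known. The text names the 10 genes, the 3 lowest and 3 highest other immediate early genes in cancer cells, heat shock genes past 1.5-fold there (0 upstream factors were), and the genes most like them. Btg2, Ier3, Ier5, Klf2 and the Zfp36 paralogs were named after their values had been seen, and Srf, Elk factors and Creb1 as examples of a list. Alternatives covered limits on UMIs and mitochondrial share, cell weights, free RNA, denominator, scaling, thinning, gates, deep barcodes, rRNA-like UMIs, the minimum level and the fold. On counts simulated for cancer cells with 200 of 6462 genes changed 2-fold, 94.4% of the intervals held the true ratio, and 100% of changed and 0% of unchanged genes were past 1.5-fold. For NK cells, with 200 of 5489 genes changed, these were 95.8%, 95.5% and 3.31%. How often unchanged genes pass 1.5-fold between mice or between libraries was not tested, since each condition has 1 library. The software was scipy 1.17.1, pandas 2.3.3 and numpy 2.4.6 under Python 3.11.15.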

Additional observations from a re-analysis of the deposited data

Results flagged for a closer look

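For 6 of the 10 genes the ratio between libraries lay above 1 in one class and below 1 in another, with 95% counting intervals that excluded 1 in both. With 1 library per condition these differences between classes were not tested, and the share of all genes with such a pair was not computed. Fos had a log2 ratio of 0.26 in macrophages and -1.55 in T cells. Junb had 0.41 in macrophages and -0.49 in cancer cells. Egr1 had 0.16 in fibroblasts and -1.59 in DC. Atf3 had 0.31 in DC and -0.40 in cancer cells. Dusp1 had 0.53 in macrophages and -0.95 in cancer cells, and Zfp36 had 0.63 in macrophages and -0.63 in cancer cells.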

How the results depend on the processing

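With 1 library per condition no replicate check exists, and every interval covers counting error only. No paired analysis was possible because neither condition has a second library. In cancer cells the number of the 10 genes lower by at least 1.5-fold was 5 under 11 alternatives, 4 with the CPM of each cell averaged and 0 at a limit of 2-fold. Against the mean of the 2 libraries, the class with the highest level was the same for 9 of the 10 genes in the control library alone, 9 in the ENZ library alone and 9 after thinning, the exceptions being Egr1 in the control library and after thinning, and Zfp36 in the ENZ library. Of 880 single ratios recomputed, 65 changed direction, 24 of them from a value whose counting interval excluded 1 and 41 from one whose interval held 1. The cause was not tested, and thinning and the removal of rRNA-rich barcodes leave few UMIs or cells in the immune classes. Neutrophils were the shallowest of the 8 classes, with medians of 1972 and 2063 UMIs per cell, and some single values rested on few UMIs, such as 77 for Dusp1 in ENZ NK cells and 28 for Egr1 in ENZ DC.

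In the counts of genes at least 1.5-fold lower, the 10 of 80 became 16 with median-of-ratios scaling, 16 without barcodes over 5% rRNA-like UMIs (an alternative chosen after seeing the data) and 2 at 2-fold. The share of all genes past the fold was not computed under any alternative, here or above, so the counts under alternatives have no background. With at least 2000 UMIs monocytes had 2 and neutrophils 1. With the CPM of each cell averaged, T cells had 1, NK cells 0 and neutrophils 1. With free RNA subtracted, NK cells had 3, monocytes 2, neutrophils 1 and DC 2. With median-of-ratios scaling, T cells had 4, NK cells 2, macrophages 1, monocytes 2 and DC 2. With thinned cells, T cells had 1, monocytes 2, DC 3 and fibroblasts 1. With 2 times the marker UMIs, T cells had 1, NK cells 3, monocytes 2 and neutrophils 1. Without the 5% of barcodes with the most UMIs, T cells had 1, NK cells 0 and monocytes 2. Without rRNA-rich barcodes, NK cells had 5, neutrophils 1 and DC 2. Those barcodes were 183 of the 199 ENZ NK cells, 390 of the 427 ENZ neutrophils and 169 of the 205 ENZ DC. At 2-fold, cancer cells had 0, T cells 1, NK cells 0 and monocytes 0.

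The median log2 ratio of the 10 genes in cancer cells was -0.53 with cells averaged, -0.62 with median-of-ratios scaling, -0.58 thinned and -0.60 without rRNA-rich barcodes. In T cells it was -0.067 with cells averaged, -0.086 without the deepest barcodes, 0.063 thinned and 0.11 without rRNA-rich barcodes, so that its direction turned in the last 2. In NK cells, where it was -0.38, it was 0.0052 with cells averaged, which ended the difference, -0.10 thinned, -0.17 without the deepest barcodes and -0.64 without rRNA-rich barcodes. In macrophages it was -0.026 with median-of-ratios scaling and 0.31 without rRNA-rich barcodes, in monocytes 0.19 without them, and in fibroblasts -0.023 with cells averaged, -0.039 thinned and -0.022 without the deepest barcodes.

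The 24 log2 ratios that turned from an interval excluding 1 were as follows, and of the other 41, 10 were in T cells, 7 in NK cells and 7 in neutrophils. With cells averaged, Ier2 (0.17) and Zfp36 (0.0098) turned in fibroblasts. With median-of-ratios scaling, Atf3 turned in macrophages (-0.021). With thinned cells, Nr4a1 turned in cancer cells (0.068), Jun (0.015), Ier2 (0.051) and Dusp1 (0.080) in T cells, Fosb in monocytes (0.17), and Fos (0.12), Junb (0.17) and Zfp36 (0.49) in fibroblasts. Without the deepest barcodes, Egr1 turned in T cells (0.081), and Jun (0.019) and Zfp36 (0.0011) in fibroblasts. Without rRNA-rich barcodes, Fos (0.022), Jun (0.34) and Zfp36 (0.20) turned in T cells, Jun in macrophages (0.17), Fosb (0.30), Egr1 (0.26), Ier2 (0.66) and Dusp1 (0.13) in monocytes, Junb in neutrophils (0.12) and Junb in DC (-0.33).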
